A study of Rattus norvegicus with 21 samples.

Results

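The cell cycle and DNA replication genes described here were 42 genes listed by name, and 40 of them were measured. A gene was measured where an array probe set carried its symbol and no other, and of several such probe sets, which 12 genes had, the one with the highest mean over the 21 arrays was used. The only probe sets for Rrm2 carried several symbols and none used here carried Tpx2, so neither gene has a value. The measured genes were 7 that act in G1 (the D and E cyclins with their kinases and E2f1), 2 inhibitors of cyclin-dependent kinases, 9 S phase genes, 13 regulators of mitosis, and 9 genes of the spindle, the chromosomes and cytokinesis. The last 22 are called the mitotic genes below. They stand beside 14217 genes in all on the array.

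RNA came from forebrain astrocytes of Sprague Dawley rats, in 7 groups of 3 biological replicates each. Fresh P1 and fresh P7 cells were immunopanned on an antibody to the integrin ITGB5 at postnatal day 1 or 7 and lysed with no culture. HBEGF P1 and HBEGF P7 cultures were panned cells kept for 7 days without serum in HBEGF, a growth factor that activates the EGF receptor, at 5 ng/ml. Serum P7 cultures were panned P7 cells kept for 7 days in 10% foetal calf serum, and withdrawn P7 cultures were such cells that were then washed and kept for 7 more days in HBEGF, whose concentration their own label does not state. The method of McCarthy and de Vellis, which uses no panning, gave the MD cultures, from forebrains taken at P1 and with 7 days in 10% serum. MD and serum P7 cultures therefore differed both in age and in preparation. The titles and source names of the HBEGF P7 arrays say P7 while their characteristics say p1, and the titles were followed. No group carried an engineered allele.

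As background, a cell enters the cycle when D cyclins with CDK4 or CDK6 phosphorylate the retinoblastoma protein, which frees E2F factors to switch on the genes of DNA synthesis. The Mcm2 to Mcm7 helicase then opens the origins, the Pcna clamp holds the polymerases on DNA, and ribonucleotide reductase and thymidylate synthase supply nucleotides. Genes needed for mitosis are held down in resting cells by the DREAM complex and switched on late in the cycle by B-Myb and Foxm1. Astrocytes of the rat forebrain still divide in the first days after birth and divide little later, and HBEGF and serum are both mitogens for cultured astrocytes.

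The values are log2 of deposited array intensities. Array medians lay between 128 and 146.3 on the linear scale, and arrays within a group correlated at a Spearman rho of 0.963 to 0.994 over all probe sets, the lowest in the HBEGF P7 cultures. All 12 astrocyte markers were above the 25th percentile of all values (5.30) in each group mean, except Gjb6 in the MD cultures, and summed astrocyte marker intensity was 68521 to 81107 in the MD cultures against 109810 to 159386 elsewhere. Summed fibroblast and meningeal marker intensity was 75391 to 116886 on the serum P7 and withdrawn P7 arrays, 21870 to 45439 on the HBEGF P7 arrays and 4973 to 18545 on the others. Microglial markers summed to 2977 to 10590 on the withdrawn P7 arrays and to at most 3838 on the others. The number of arrays, 3 a group, limits the precision, and an exact two-sided permutation test of 3 against 3 cannot give a p under 0.1. A gene was called where limma gave a Benjamini-Hochberg adjusted p under 0.05 and a log2 change of at least 1, a 2-fold change. After a log2 change, ± gives limma's standard error, with n = 3 arrays in each group. This error rests on a single spread estimate for each gene, shared by all 7 groups.

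Most of the cell cycle genes placed the MD and the withdrawn P7 cultures at opposite ends. The order of the groups between them differed between mitotic and S phase genes. The MD cultures had the highest mean for 33 of the 40 genes, including all 9 S phase genes, and the withdrawn P7 cultures had the lowest for 34 of 40, including all 31 S phase and mitotic genes, where MD cultures had the highest mean for 29.5% of all genes and withdrawn P7 cultures the lowest for 16.9%. The mean log2 intensity of the 22 mitotic genes was 11.59 ± 0.26 (SD, n = 3) in the MD cultures, 10.88 ± 0.10 in fresh P1 cells, 10.50 ± 0.25 in fresh P7 cells, 10.28 ± 1.05 in HBEGF P7 cultures, 10.18 ± 0.10 in serum P7 cultures, 9.55 ± 0.46 in HBEGF P1 cultures and 8.54 ± 0.08 in withdrawn P7 cultures. By array, the mitotic means of the MD cultures and of the withdrawn cultures overlapped with no other group, while from fresh P1 cells to serum P7 cultures each group overlapped with its neighbour in that order. The mean of the 9 S phase genes ran from 11.63 ± 0.05 in the MD cultures to 9.35 ± 0.06 in the withdrawn P7 cultures, with fresh P1 cells at 10.81 ± 0.09 and the other 4 groups at 10.27 to 10.72. In bulk RNA, fewer cycling cells and less of these transcripts in each cell cannot be told apart.

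**Figure D1:**
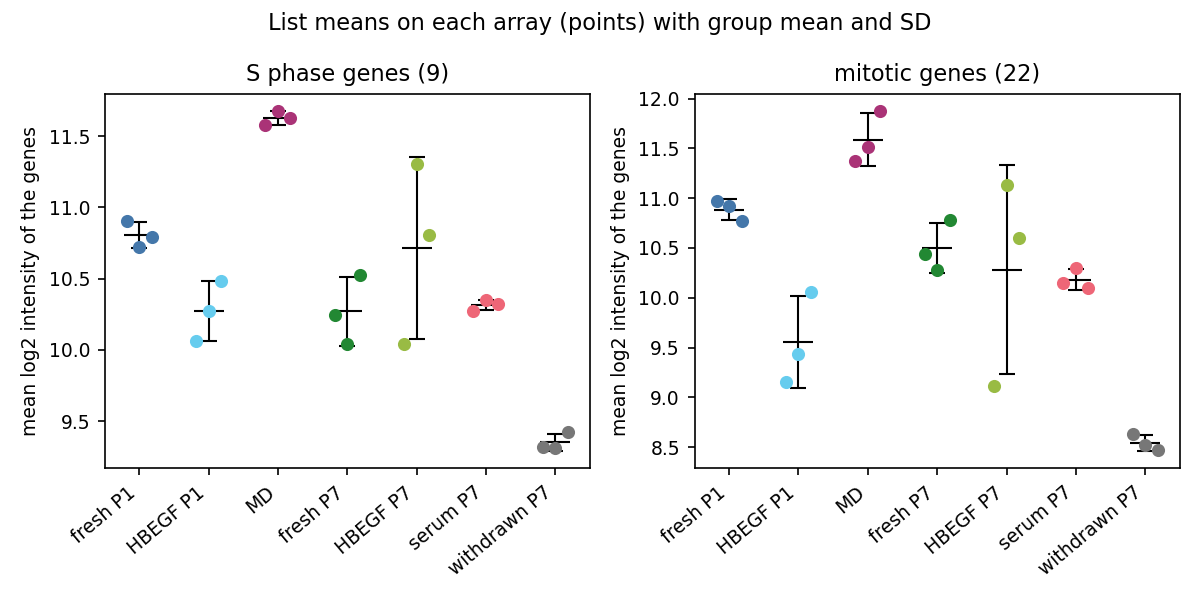
Mean log2 intensity of the 9 S phase genes (left) and the 22 mitotic genes (right) on each of the 21 arrays (points), with the group mean and SD (bars, n = 3). The MD arrays lie highest and the withdrawn P7 arrays lowest in both panels, and the 3 HBEGF P7 arrays spread from 9.11 to 11.14 in the mitotic panel.

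**Figure D2:**
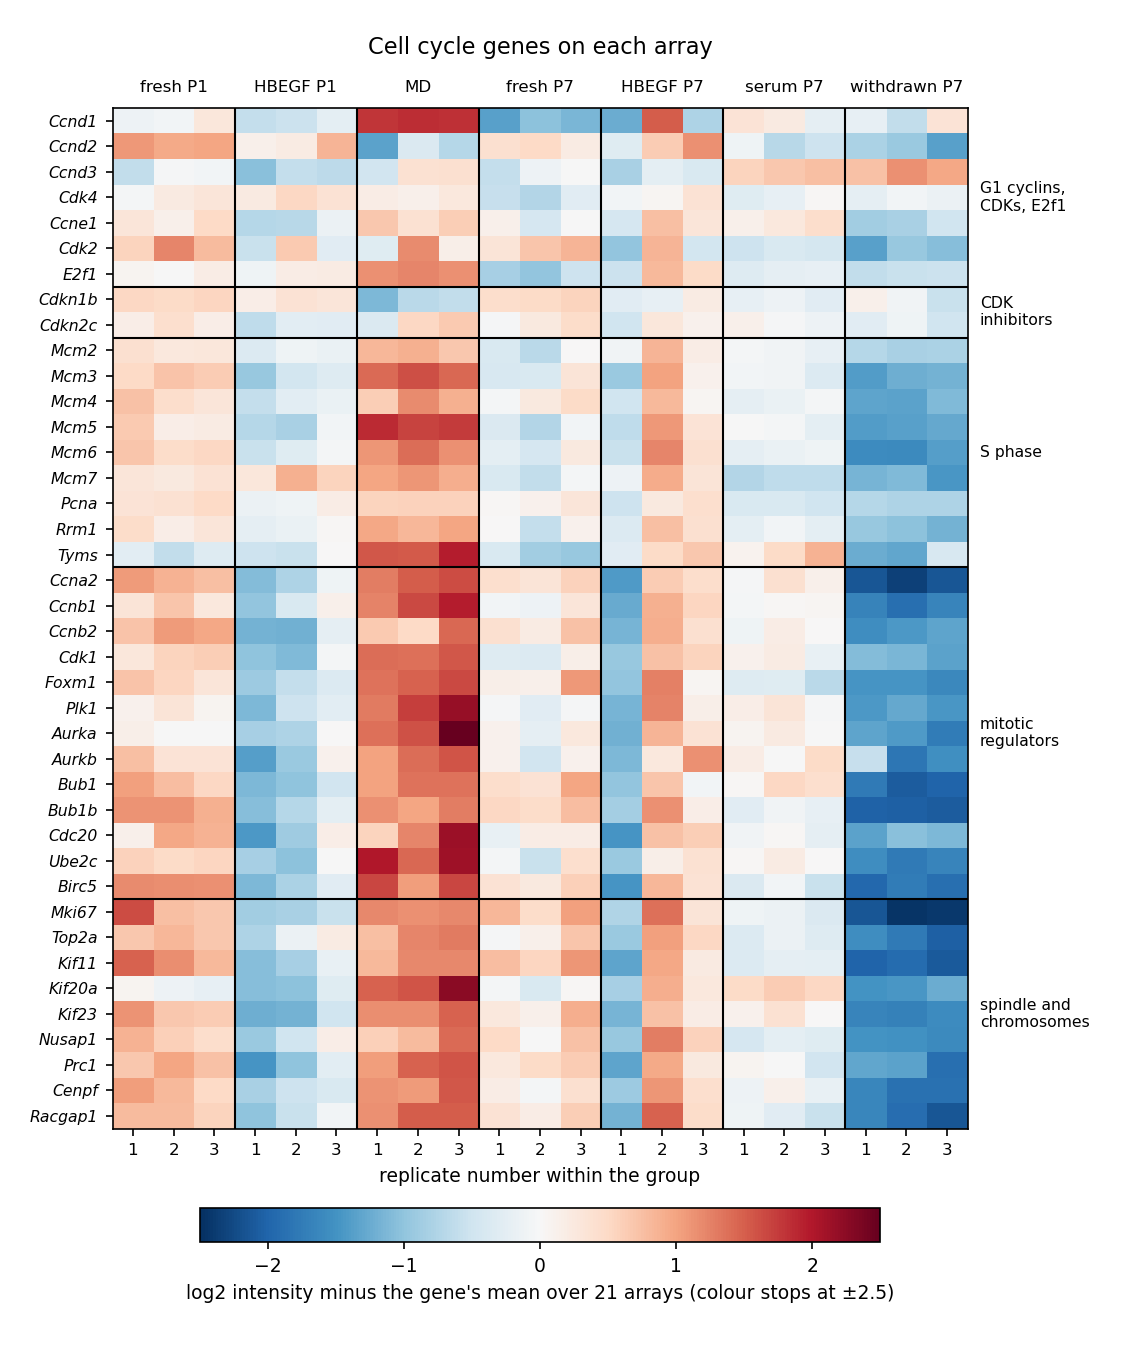
Log2 intensity of the 40 measured genes (rows, by role) on the 21 arrays (columns, by group and replicate number), each minus the gene's mean over all arrays. Mitotic and S phase rows are red in the MD columns and blue in the withdrawn P7 columns, and in most rows the first HBEGF P7 column is blue and the second red.

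The S phase genes showed the range on single arrays. Mcm5, a subunit of the replicative helicase, read 11.26, 11.09 and 11.15 in the MD cultures, 10.05, 9.56 and 9.60 in fresh P1 cells and 8.001, 8.03 and 8.13 in the withdrawn P7 cultures. The 3 groups did not overlap, and the MD arrays lay above every other array for this gene. Mcm2, of the same helicase, read 11.37, 11.42 and 11.21 in the MD cultures, 10.94, 10.80 and 10.82 in fresh P1 cells and 9.82, 9.74 and 9.74 in the withdrawn cultures, a narrower range in the same order. Pcna, the sliding clamp, had the narrowest range of group means of the S phase genes, 1.32 on the log2 scale, with 13.97, 13.99 and 13.99 in the MD cultures and 12.69, 12.65 and 12.65 in the withdrawn cultures. Tyms, thymidylate synthase, read 8.72, 8.71 and 9.13 in the MD cultures, 7.25, 7.65 and 8.05 in serum P7 cultures, 6.79, 6.29 and 6.23 in fresh P7 cells and 5.94, 5.87 and 6.77 in withdrawn cultures. Its arrays were higher in both kinds of serum culture than in either kind of fresh cell.

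Each of 4 mitotic genes read lower on all withdrawn arrays than on any MD or fresh P1 array. Mki67, which coats mitotic chromosomes and marks cycling cells, read 12.23, 11.36 and 11.28 in fresh P1 cells, 11.45, 11.07 and 11.63 in fresh P7 cells, 11.81, 11.76 and 11.80 in the MD cultures and 8.47, 8.16 and 8.20 in the withdrawn P7 cultures. The MD arrays lay within the range of the fresh P1 arrays for this gene, and all withdrawn arrays lay far under every fresh array. Cdk1, the kinase that drives mitosis, read 12.82, 12.79 and 12.96 in the MD cultures, 11.70, 11.98 and 12.03 in fresh P1 cells and 10.33, 10.27 and 10.08 in withdrawn cultures. Its partner Ccnb1, cyclin B1, read 11.48, 11.90 and 12.21 in the MD cultures, 10.56, 10.94 and 10.51 in fresh P1 cells and 8.56, 8.36 and 8.58 in withdrawn cultures, and neither gene overlapped between these groups. Top2a, the topoisomerase that untangles chromosomes, read 11.76, 12.23 and 12.32 in the MD cultures, 11.69, 11.85 and 11.69 in fresh P1 cells and 9.46, 9.24 and 8.96 in withdrawn cultures, and here the MD arrays overlapped the fresh P1 arrays.

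The promoters of the genes that moved together were set beside these values. RefSeq promoter sequences of the GRCr8 build, from 250 bases before the transcript start to 50 after it, matched 31 of the 40 genes by gene identifier, and Ccnd1, Ccnd2, E2f1, Mcm4, Ccna2, Foxm1, Aurkb, Ube2c and Racgap1 had no match. The letters searched, on both strands, were TTTGAA, the cell cycle homology region (CHR) that B-Myb and DREAM complexes bind, CCAAT, the box bound by NF-Y, and TTTNNCGC, an E2F site. The CHR letters were in 12 of 17 mitotic promoters (70.6%) and in 1 of 8 S phase promoters (12.5%). They were in 17% of all 18999 promoters of this length from protein-coding genes, the set that gives each share of all promoters here. The E2F letters were in 6 of 8 S phase promoters (75%), in 3 of 17 mitotic ones (17.6%) and in 6.07% of all. CCAAT was in 14 of 17 mitotic promoters (82.4%), in 6 of 8 S phase promoters (75%) and in 38.4% of all, and 11 of 17 mitotic promoters held both CHR and CCAAT letters against 7.04% of all. None of the 4 matched G1 genes and neither CDK inhibitor held CHR or E2F letters. A match is a string of letters in this window and does not show binding. The sequences shown, chosen because they hold these letters and belong to genes named above, are those of Cdk1 (chr20:19265043-19265342, plus strand), with all 3 kinds, Mki67 (chr1:199952544-199952843, minus strand) and Top2a (chr10:84473044-84473343, minus strand), with CHR and CCAAT, and Mcm5 (chr19:13488563-13488862, plus strand), with E2F and CCAAT. Capitals mark every match on either strand, so CHR also appears as TTCAAA and CCAAT as ATTGG. In Mki67 a CHR match overlaps a CCAAT match, and in Mcm5 a pair of E2F matches on opposite strands overlap.
Cdk1: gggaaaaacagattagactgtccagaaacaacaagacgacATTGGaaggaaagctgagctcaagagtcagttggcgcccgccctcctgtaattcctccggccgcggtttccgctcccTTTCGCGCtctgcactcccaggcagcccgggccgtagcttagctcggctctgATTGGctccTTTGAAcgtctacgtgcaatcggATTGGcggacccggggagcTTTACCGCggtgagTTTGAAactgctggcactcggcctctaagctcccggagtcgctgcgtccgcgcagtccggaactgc
Mki67: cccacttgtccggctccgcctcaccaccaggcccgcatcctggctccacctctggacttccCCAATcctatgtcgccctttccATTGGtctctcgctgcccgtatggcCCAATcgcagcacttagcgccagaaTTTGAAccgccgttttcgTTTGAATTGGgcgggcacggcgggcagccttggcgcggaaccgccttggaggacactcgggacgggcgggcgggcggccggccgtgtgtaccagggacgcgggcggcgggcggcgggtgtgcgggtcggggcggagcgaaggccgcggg
Top2a: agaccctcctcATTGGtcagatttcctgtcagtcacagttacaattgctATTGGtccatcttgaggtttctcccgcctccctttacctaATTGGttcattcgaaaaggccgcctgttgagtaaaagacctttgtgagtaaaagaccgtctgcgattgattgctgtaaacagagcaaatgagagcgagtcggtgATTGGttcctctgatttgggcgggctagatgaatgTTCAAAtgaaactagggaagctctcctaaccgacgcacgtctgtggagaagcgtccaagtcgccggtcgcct
Mcm5: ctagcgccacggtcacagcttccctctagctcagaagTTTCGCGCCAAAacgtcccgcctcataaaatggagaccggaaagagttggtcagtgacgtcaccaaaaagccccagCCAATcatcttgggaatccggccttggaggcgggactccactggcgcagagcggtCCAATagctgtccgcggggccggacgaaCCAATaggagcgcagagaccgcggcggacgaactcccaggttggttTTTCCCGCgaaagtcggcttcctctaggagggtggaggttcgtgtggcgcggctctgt

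Between P1 and P7, fresh cells showed a small shift with no call. None of the 40 genes was called in either direction by limma, where 1.37% of all genes were called higher at P7 and 0.183% lower. All 40 differences were negative, with a median log2 change of -0.43 against -0.02 over all genes, and for 21 genes every P7 array lay under every P1 array, where 12.9% of all genes did so. At an unadjusted p under 0.05, 9 of the 40 were lower and 0 higher, where 8.21% of all genes were lower and 12.1% higher. E2f1, the factor that activates S phase genes, read 8.95, 8.86 and 9.06 at P1 and 8.05, 7.90 and 8.36 at P7, which did not overlap (-0.85 ± 0.23, 1.81-fold lower, adjusted p = 0.0506 by limma). Mcm2 differed by -0.66 ± 0.19 (adjusted p = 0.0675 by limma), and Mki67 by -0.24 ± 0.36 (adjusted p = 0.785). Ccnd1 had the largest difference, -1.20 ± 0.46, with adjusted p = 0.174 by limma. Leaving out HBEGF P7 replicate 2, which enters through the shared error estimate, gave 1 gene called lower, and leaving out any other array gave none. Neuronal markers summed to 9715 to 11562 at P1 and 6323 to 8018 at P7, and endothelial markers to 958 to 1648 and 584 to 860. Astrocyte markers summed to 109810 to 120831 at P1 and 149834 to 159386 at P7. Higher at P7 as well were microglial (1015 to 1393, then 1765 to 3685) and oligodendrocyte markers (4231 to 4628, then 5679 to 6580). Their part in the shift was not tested.

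Culture of P1 cells in HBEGF went with lower mitotic genes. Of the 40 genes 15 fell and 0 rose against fresh P1 cells, where 4.49% of all genes were called lower and 4.38% higher. The 15 were 8 of 13 regulators of mitosis, 6 of 9 spindle and chromosome genes and 1 of 9 S phase genes, and the median log2 change was -1.31 for the mitotic genes, -0.52 for the S phase genes and 0.03 for all genes. For 32 of the 40 every cultured array lay under every fresh array, where 18.4% of all genes did so. Birc5, survivin of the chromosomal passenger complex, read 10.61, 10.59 and 10.57 in fresh P1 cells and 8.31, 8.63 and 9.14 in the cultures, and fell (-1.90 ± 0.39, 3.73-fold lower, adjusted p = 0.00219 by limma). Every cultured array was under every fresh array for it. Ccnb2, cyclin B2, went from 12.07, 12.41 and 12.32 to 10.16, 10.14 and 11.12 (-1.79 ± 0.39, 3.47-fold lower, adjusted p = 0.0031 by limma). Bub1 and Bub1b, kinases of the spindle checkpoint, fell by 1.65 and 1.72 on the log2 scale (adjusted p = 0.000965 and 0.000944 by limma).

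Of the 9 spindle and chromosome genes 6 fell. Mki67 read 9.74, 9.80 and 10.05 in the HBEGF P1 cultures, under all fresh P1 arrays given above, and fell (-1.76 ± 0.36, 3.39-fold lower, adjusted p = 0.00194 by limma). Kif11, the motor that separates spindle poles, changed by -1.85 ± 0.38, Kif23, a motor of the central spindle, by -1.77 ± 0.34 and Prc1, which bundles the midzone microtubules, by -1.72 ± 0.41, and all 3 were called. Mcm3 was the 1 S phase gene that fell (-1.19 ± 0.32, 2.28-fold lower, adjusted p = 0.0139 by limma), while Mcm2 (-0.52 ± 0.19), Mcm5 (-0.87 ± 0.30) and Pcna (-0.44 ± 0.17) did not pass. Top2a (-0.96 ± 0.36) and Ccnb1 (-0.84 ± 0.39) did not pass either. In G1, E2f1 read 8.78, 9.07 and 9.07 against 8.95, 8.86 and 9.06 in fresh cells, so the groups overlapped. Of the 15 calls, 10 held whichever array was left out. Cdk1 (-1.21 ± 0.34, 2.31-fold lower, adjusted p = 0.0168) lost its call without fresh P1 replicate 2 or 3 (adjusted p = 0.0527 and 0.0561) or HBEGF P1 replicate 1 or 2 (0.074 and 0.0791), and Mcm3 without HBEGF P1 replicate 1 (0.0711). With the replicate number of these 2 groups as a block, Foxm1 (-1.13, adjusted p = 0.0441, then 0.0612) and Racgap1 (-1.25, adjusted p = 0.049, then 0.0638 by limma) did not pass. Foxm1 also lost its call when any 1 of 14 arrays was left out, and Racgap1 when any 1 of 18 was. Arrays of other groups, which enter through the shared error estimate, were among them. Ube2c lost its call without HBEGF P1 replicate 1 or 2 (adjusted p = 0.0575 and 0.0701 by limma). Of 6 oligodendrocyte progenitor markers 3 rose in these cultures, with sums of 20854 to 29676 against 11015 to 12191 in fresh P1 cells. Sums were also higher for neuronal (15416 to 19497 against 9715 to 11562) and oligodendrocyte markers (6863 to 8296 against 4231 to 4628). Astrocyte markers summed to 122889 to 139955 against 109810 to 120831. Lower sums were those of microglial (617 to 736 against 1015 to 1393) and endothelial markers (595 to 640 against 958 to 1648). Mural markers summed to 753 to 1043 against 1333 to 1532. The part of any of these was not tested.

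In the HBEGF P7 cultures the 3 arrays disagreed on these genes more than those of any other group. Replicate 1 had the lowest value of the 3 for all 40 genes, while replicate 2 had the highest for 33 and replicate 3 for 7. Over all genes replicate 1 was lowest for 25.9% and replicate 2 highest for 37.1%. The median distance between the highest and lowest array was 1.87 on the log2 scale for the 40 genes, against 0.24 to 0.73 in the other 6 groups, and over all genes it was 0.44 in the HBEGF P7 cultures. Replicate 2 exceeded replicate 1 by a median of 1.80 for the 40 genes and by -0.02 over all genes, and 32 of the 40 were at least 1 higher, where 474 genes (3.33%) of all were. Replicate 3 exceeded replicate 1 by a median of 1.05, and replicate 2 exceeded replicate 3 by a median of 0.53.

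Single genes showed the same split. Mki67 read 9.85, 11.99 and 10.92 on HBEGF P7 replicates 1, 2 and 3, and Top2a 10.09, 12.05 and 11.54. Cdk1 read 10.46, 12.15 and 11.97 and Ccnb1 8.98, 11.12 and 10.78, with replicates 2 and 3 close together and replicate 1 far under them. Mcm5 read 8.76, 10.48 and 9.75, and Racgap1, which with Kif23 organises the cleavage furrow, 9.66, 12.33 and 11.30. Mcm2 differed less, at 10.46, 11.39 and 10.72. Ccnd1, cyclin D1, read 10.98, 13.73 and 11.45: replicate 2 was near the MD arrays and the other 2 near the fresh P7 arrays. Aurkb, the kinase of the passenger complex, was one of the 7 genes with replicate 3 highest, at 8.95, 10.35 and 11.22.

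Set against the 3 fresh P7 arrays, replicate 1 lay under all of them for 22 of 22 mitotic genes and 4 of 9 S phase genes, where 30.0% of all genes did so. Replicate 2 lay above all of them for 18 mitotic and 8 S phase genes, where 41.2% of all genes did so. Replicate 3 lay above all of them for 7 of 9 S phase genes, but above for 8 and under for 6 of the mitotic genes, where 40.1% of all genes lay above and 32.4% under. Against the 3 serum P7 arrays, replicate 1 was under all of them for 22 of 22 mitotic genes, replicate 2 above for 20 and replicate 3 above for 18, where 34.7%, 38.5% and 36.8% of all genes did so. Other markers differed between these arrays as well. On replicates 1, 2 and 3 the 12 fibroblast and meningeal markers summed to an intensity of 45439, 21870 and 44353, the 12 microglial markers to 867, 722 and 3838, the 12 neuronal markers to 10196, 10179 and 18140, and the 6 progenitor markers of oligodendrocytes to 18515, 27468 and 12347. Their part in the spread was not tested.

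**Figure D3:**
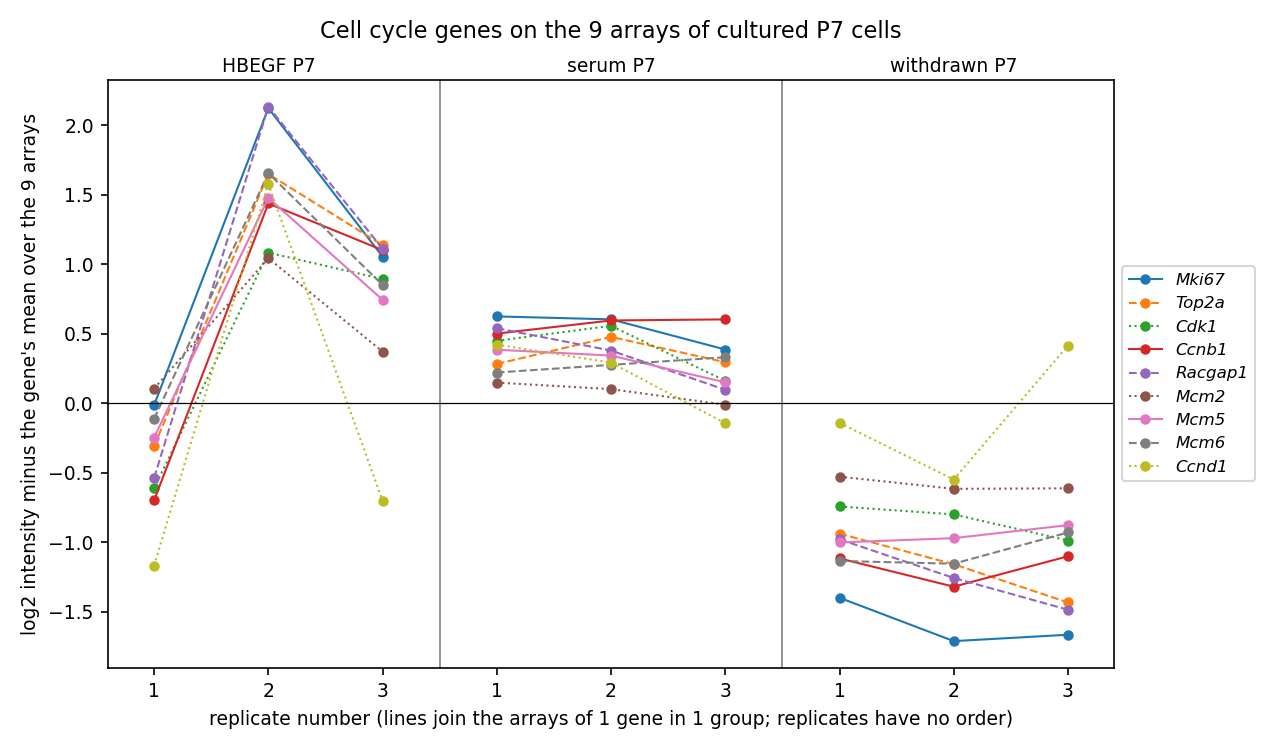
Log2 intensity of 9 genes on the 9 arrays of cultured P7 cells, each minus the gene's mean over those arrays. The lines join arrays of 1 gene within a group and carry no order. For each gene replicate 1 is the lowest and replicate 2 the highest of the HBEGF P7 arrays, and the serum P7 arrays and the withdrawn P7 arrays lie closer together than the HBEGF P7 arrays.

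Against fresh P7 cells 2 of the 40 genes rose in HBEGF P7 cultures and 0 fell, where 4.78% of all genes were called higher and 5.51% lower. E2f1 read 8.05, 7.90 and 8.36 fresh and 8.33, 9.68 and 9.35 cultured (1.02 ± 0.23, 2.02-fold higher, adjusted p = 0.00336 by limma), with replicate 1 of the cultures inside the fresh range. Tyms read 6.88, 7.66 and 7.85 in the cultures, above all fresh P7 arrays (1.03 ± 0.28, 2.04-fold higher, adjusted p = 0.0139 by limma). Without fresh P7 replicate 2, HBEGF P7 replicate 2 or HBEGF P7 replicate 3, neither gene was called, and E2f1 changed by 0.91, 0.74 and 0.90 and Tyms by 0.95, 0.93 and 0.83. Without fresh P7 replicate 1 or 3 a single gene was called higher, and without HBEGF P7 replicate 1, 4 were, where 4.05% of all genes were. Without HBEGF P7 replicate 2, 3 genes were called lower, where 5.66% of all genes were. Mcm2 (0.66 ± 0.19, adjusted p = 0.016) missed the 2-fold limit, and Mki67 (-0.46 ± 0.36), Cdk1 (0.29 ± 0.34) and Ccnb1 (0.02 ± 0.39) did not pass.

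Against HBEGF P1 cultures, grown the same way from younger rats, limma called none of the 40 genes, where 0.753% of all genes were called higher in HBEGF P7 cultures and 0.359% lower. At an unadjusted p under 0.05, 14 were higher and 1 lower, where 7.58% of all genes were higher and 6.03% lower. Of the 40 differences 36 were positive, with a median of 0.64 against -0.0023 over all genes. Mki67 had the largest, 1.06 ± 0.36 (adjusted p = 0.206 by limma). Without HBEGF P7 replicate 1, 20 of the 40 were called higher, where 1.08% of all genes were. Replicate 2 lay above all 3 HBEGF P1 arrays for 37 of the 40 genes and replicate 3 for 35, where 32.1% and 30.0% of all genes did so, while replicate 1 lay under all 3 for 22, where 29.2% of all genes did. The change from fresh to HBEGF culture was then compared between P7 and P1 cells as a difference of differences. Mcm2 alone was called, with a culture change 1.18 ± 0.27 higher at P7 (adjusted p = 0.0482 by limma), where 0.162% of all genes were called higher and 0.654% lower. It lost that call without any of 19 of the 21 arrays, among them HBEGF P7 replicate 2 (0.91) and replicate 3 (adjusted p = 0.0582), and without HBEGF P7 replicate 1, 22 of the 40 were called higher, where 1.06% of all genes were. Cdk1 (1.50 ± 0.48) and Mcm5 (1.52 ± 0.43) did not pass.

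Few of the genes separated serum from HBEGF cultures of P7 cells, among which the HBEGF arrays spread widely. In serum P7 against HBEGF P7 cultures 1 of the 40 genes rose and 1 fell, where 4.83% of all genes were called higher and 4.47% lower. The arrays of these groups did not overlap for these 2 genes alone, where 17.8% of all genes lay wholly higher and 20.2% wholly lower. Ccnd3, cyclin D3, read 9.96, 10.53 and 10.40 in HBEGF and 11.34, 11.45 and 11.53 in serum, without overlap (1.14 ± 0.24, 2.20-fold higher, adjusted p = 0.00243 by limma). Mcm7, of the replicative helicase, read 11.52, 12.57 and 11.97 and 10.91, 11.01 and 11.00 (-1.05 ± 0.21, 2.06-fold lower, adjusted p = 0.00192 by limma), also without overlap. Ccnd3 was under the 2-fold limit without HBEGF P7 replicate 1 (0.97), when 7 genes in place of 1 were called lower in serum, where 4.26% of all genes were, and Mcm7 without HBEGF P7 replicate 2, when 2 were called higher and 0 lower (log2 change of Mcm7 -0.77). Without serum P7 replicate 1, 2 genes were called lower. Mki67 (-0.52 ± 0.36), Cdk1 (-0.07 ± 0.34) and Pcna (-0.47 ± 0.17) did not pass. The serum arrays lay close together: Cdk1 read 11.52, 11.63 and 11.23 and Mki67 10.49, 10.47 and 10.25. Of 12 fibroblast and meningeal markers 7 rose in serum against HBEGF, and of 12 neuronal markers 6 fell. Their part was not tested.

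Against fresh P7 cells the serum P7 cultures had 2 genes higher and 1 lower of 40, where 9.12% of all genes were called higher and 9.04% lower. The arrays of these groups did not overlap for 6 genes that were higher and 16 that were lower in serum, where 29.9% and 24.9% of all genes did so. Tyms rose (1.21 ± 0.28, 2.31-fold higher, adjusted p = 0.00281 by limma), as did Ccnd1, from 10.87, 11.20 and 11.08 to 12.57, 12.44 and 12.01 (1.29 ± 0.46, 2.44-fold higher, adjusted p = 0.0355), and Kif11 fell (-1.08 ± 0.38, 2.11-fold lower, adjusted p = 0.0362). Ccnd1 lost its call without fresh P7 replicate 1, 2 or 3 (adjusted p = 0.0947, 0.0572 and 0.0743) or serum P7 replicate 1 or 2 (0.103 and 0.0872). Kif11 lost its call without fresh P7 replicate 1 or 3 (0.0721 and 0.122) or any serum P7 array (0.0712 to 0.0861). Leaving out fresh P7 replicate 2, MD replicate 1 or 2, HBEGF P1 replicate 2 or HBEGF P7 replicate 1 or 2 gave 2 genes lower in place of 1. Mki67 (-0.98 ± 0.36, adjusted p = 0.0422) and Pcna (-0.57 ± 0.17, adjusted p = 0.0136) were lower by less than 2-fold.

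Replacement of serum by HBEGF for 7 more days went with lower levels across S phase and mitosis. The withdrawn cultures differed from the serum P7 cultures both in medium and in those 7 more days of culture. The parts of medium and time cannot be told apart, and withdrawal here names both together. Of the 40 genes 23 fell and 0 rose in withdrawn against serum P7 cultures, where 2.26% of all genes were called lower and 2.24% higher. They were 10 of 13 regulators of mitosis, 7 of 9 spindle and chromosome genes, 5 of 9 S phase genes and 1 of 7 G1 genes. The median log2 change was -1.58 for mitotic genes, -1.10 for S phase genes and 0.02 over all genes, and for 35 of the 40 every withdrawn array was under every serum array, where 17.1% of all genes did so. Ccna2, the cyclin of S and G2 phase, read 9.99, 10.41 and 10.14 in serum and 7.87, 7.68 and 7.87 after withdrawal (-2.37 ± 0.37, 5.17-fold lower, adjusted p = 0.00104 by limma). Bub1 read 9.81, 10.30 and 10.20 and 8.02, 7.71 and 7.79 (-2.26 ± 0.31, 4.79-fold lower, adjusted p = 0.000432). Both fell by more than any other member, and neither overlapped between groups.

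Bub1b (-1.86 ± 0.32, 3.62-fold lower, adjusted p = 0.00228 by limma) followed its partner kinase. Mki67 read 10.49, 10.47 and 10.25 in serum and 8.47, 8.16 and 8.20 after withdrawal (-2.13 ± 0.36, 4.38-fold lower, adjusted p = 0.0019 by limma). Kif20a, a motor needed for cytokinesis, fell by 1.94, Kif23 by 1.80 and Kif11 by 1.74 on the log2 scale, though dimmer second probe sets of Kif23 (-0.62, adjusted p = 0.681 by limma) and Kif11 (-0.99, adjusted p = 0.296) were not called. Among S phase genes Mcm6 read 10.77, 10.83 and 10.88 and 9.42, 9.40 and 9.62 (-1.35 ± 0.29, 2.55-fold lower, adjusted p = 0.00926), and Mcm4 (-1.11 ± 0.25) and Tyms (-1.46 ± 0.28) also fell. Mcm2 (-0.67 ± 0.19, adjusted p = 0.0394) missed the 2-fold limit and Pcna (-0.32 ± 0.17, adjusted p = 0.309) passed neither limit, although their arrays did not overlap either. E2f1 (-0.33 ± 0.23), Ccnd1 (-0.28 ± 0.46) and Ccnd3 (0.29 ± 0.24) did not pass.

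Of the 23 calls 12 held whichever array was left out, and the count was 15 without serum P7 replicate 1, 12 without serum P7 replicate 2 and 12 without withdrawn P7 replicate 2, where 1.63%, 1.22% and 1.53% of all genes were called lower. With the replicate number of these 2 groups as a block, Mcm3 (-1.10, adjusted p = 0.046, then 0.0567 by limma) did not pass. Ccnb1 (-1.75 ± 0.39, 3.35-fold lower, adjusted p = 0.0118 by limma) lost its call without serum P7 replicate 2 (adjusted p = 0.0518) or withdrawn P7 replicate 2 (0.0509), and so did Top2a (-1.53 ± 0.36, 2.88-fold lower, adjusted p = 0.0161, then 0.0725 and 0.0529). Mcm5 (-1.24 ± 0.30, 2.37-fold lower, adjusted p = 0.0198) lost it without serum P7 replicate 1 or 2 (0.0721 and 0.0782) or withdrawn P7 replicate 1 or 2 (0.0652 and 0.0655). Cdk1 (-1.23 ± 0.34, 2.35-fold lower, adjusted p = 0.0339) lost it without serum P7 replicate 1 or 2 (0.106 and 0.134) or any withdrawn array (0.0774 to 0.0911). Microglial markers moved the other way. Of their 12, 6 rose and 0 fell between these groups, and their summed intensity was 1308 to 1633 in serum and 2977 to 10590 after withdrawal. P2ry12, Itgam, Ptprc and Tyrobp were under the 25th percentile of all values in the serum group mean, and none of the 12 was after withdrawal. Fibroblast and meningeal markers summed to 75391 to 116886 in serum and 76487 to 110388 after withdrawal. Of 8 endothelial markers 2 rose and 0 fell, with sums of 642 to 1926 in serum and 2080 to 3827 after withdrawal. The part of any of these in the change was not tested.

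The same direction held against the HBEGF P7 cultures, a comparison that shares the withdrawn arrays with the one above. The withdrawn cultures differed from the HBEGF P7 cultures in earlier serum and in a longer time in culture, which cannot be told apart. Here 30 of the 40 genes were called lower and 1 higher, where 5.42% of all genes were called lower and 6.29% higher. They were 12 of 13 regulators of mitosis, all 9 spindle and chromosome genes, 8 of 9 S phase genes and Ccnd2. For 30 of the 40 every withdrawn array lay under every HBEGF P7 array, where 22.5% of all genes did so. Mki67 changed by -2.65 ± 0.36 (6.26-fold lower, adjusted p = 9.8e-05 by limma), Bub1b by -2.21 ± 0.32, Racgap1 by -2.14 ± 0.43 and Ccna2 by -2.10 ± 0.37. Mcm6 (-1.87 ± 0.29) and Mcm7 (-1.61 ± 0.21) led the S phase genes, and Pcna (-0.80 ± 0.17, adjusted p = 0.00289) was lower by less than 2-fold. Even the low replicate 1 of the HBEGF P7 cultures lay above all withdrawn arrays for 9 of 9 S phase genes and 19 of 22 mitotic genes, where 41.1% of all genes did so. Without HBEGF P7 replicate 2 the calls of Mcm2 (-1.09 ± 0.19, then -0.82) and Cdk1 (-1.30 ± 0.34, then -0.98 with adjusted p = 0.0598) ended. The calls of Mcm3, Ccnb2, Plk1, Aurka, Aurkb and Prc1 also ended without that array. Of 31 calls 23 held whichever array was left out, and every other call ended without HBEGF P7 replicate 2. Between these groups 7 of 12 fibroblast and meningeal markers and 6 of 12 microglial markers rose, and 6 of 12 neuronal markers fell, and their part was not tested.

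Against fresh P7 cells, withdrawn P7 cultures had 26 genes lower and 1 higher of 40, where 11.1% of all genes were called lower and 11.1% higher. For 35 of the 40 every withdrawn array lay under every fresh array, where 27.4% of all genes did so. Mki67 had the largest change of any member in any comparison here, -3.11 ± 0.36 (8.61-fold lower, adjusted p = 2.93e-06 by limma). Kif11 (-2.81 ± 0.38), Ccna2 (-2.65 ± 0.37), Bub1b (-2.63 ± 0.32) and Bub1 (-2.54 ± 0.31) followed. The median was -1.96 for mitotic genes and -0.90 for S phase genes, of which 3 of 9 were called: Mcm4 (-1.48 ± 0.25), Mcm6 (-1.38 ± 0.29) and Mcm3 (-1.12 ± 0.32). Without HBEGF P7 replicate 1 or 2, 2 genes were called higher. Mcm3 lost its call without fresh P7 replicate 3 (adjusted p = 0.058). Cdk1 (-1.01 ± 0.34, 2.01-fold lower, adjusted p = 0.0227) lost it without fresh P7 replicate 3 (0.0921) or withdrawn P7 replicate 3 (0.0669). Of 12 fibroblast and meningeal markers 11 rose between these groups, and endothelial markers summed to 584 to 860 in fresh P7 cells and 2080 to 3827 after withdrawal (3 of 8 rose and 1 fell). Their part was not tested. Cdc20, the activator of the anaphase-promoting complex, was not called (-1.23 ± 0.50, adjusted p = 0.0549), while 3 of its 4 other probe sets passed (-1.09 to -1.22, adjusted p = 0.00848 to 0.0226 by limma).

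The MD cultures stood at the other end. Against fresh P1 cells 9 of the 40 genes rose and 2 fell, where 10.1% of all genes were called higher and 9.43% lower. For 23 of the 40 every MD array lay above every fresh array, where 33.0% of all genes did so. The 9 called were Tyms (2.08 ± 0.28) and Mcm5 (1.43 ± 0.30) in S phase, Aurka (1.79 ± 0.39), Plk1 (1.58 ± 0.39), Ube2c (1.33 ± 0.31) and Ccnb1 (1.19 ± 0.39) among the regulators of mitosis, Kif20a (1.86 ± 0.32) of the spindle genes, and Ccnd1 (1.79 ± 0.46) and E2f1 (1.09 ± 0.23) in G1. Aurka and Plk1 are kinases that build the spindle, and Ube2c is the ubiquitin carrier of the anaphase-promoting complex. Aurka read 9.38, 9.22 and 9.22 in fresh P1 cells and 10.61, 10.82 and 11.76 in the MD cultures, and Ube2c 11.87, 11.78 and 11.84 and 13.30, 12.74 and 13.43, without overlap. Kif20a read 9.91, 9.72 and 9.65 and 11.32, 11.43 and 12.10 (1.86 ± 0.32, 3.62-fold higher, adjusted p = 0.000184 by limma). Other mitotic genes were not called: Mki67 differed by 0.17 ± 0.36, Top2a by 0.36 ± 0.36 and Kif11 by -0.08 ± 0.38. Cdk1 (0.96 ± 0.34, adjusted p = 0.0332) missed the 2-fold limit. Of the 11 calls 10 held whichever array was left out. Ccnb1 (adjusted p = 0.0238) lost its call without MD replicate 2 or 3 (0.0557 and 0.0916) or fresh P1 replicate 1 or 3 (0.0684 and 0.0678). The median of all genes in this comparison was 0.11, the largest offset in any. Centring the arrays on their medians gave 11 higher, but it raised this offset to 0.20 and did not remove it. Of 12 astrocyte markers 6 fell in MD cultures against fresh P1 cells, and their part was not tested.

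Against HBEGF P1 cultures, with which they share the age of the rats and the 7 days of culture, the MD cultures had 31 of the 40 genes higher and 2 lower, where 8.81% of all genes were called higher and 9.57% lower. These groups differ both in medium, serum against HBEGF, and in preparation, without or with panning. The parts of medium and preparation cannot be told apart. All 22 mitotic genes rose, with changes from 1.32 to 2.57, as did 6 of 9 S phase genes. For 35 of the 40 every MD array lay above every HBEGF P1 array, where 30.3% of all genes did so. Kif20a (2.57 ± 0.32, 5.92-fold higher, adjusted p = 8.68e-06 by limma) and Ube2c (2.48 ± 0.31, 5.59-fold higher, adjusted p = 9.37e-06) changed most. Mcm5 read 8.68, 8.59 and 9.32 in HBEGF and 11.26, 11.09 and 11.15 in the MD cultures (2.30 ± 0.30, 4.92-fold higher, adjusted p = 1.63e-05 by limma), Mcm3 8.58, 9.06 and 9.20 and 10.94, 11.12 and 10.95 (2.06 ± 0.32, 4.16-fold higher, adjusted p = 8.55e-05). Cdk1 read 10.40, 10.31 and 11.37 in HBEGF against 12.82, 12.79 and 12.96 (2.16 ± 0.34, 4.48-fold higher, adjusted p = 8.11e-05). Mcm2 (1.00 ± 0.19, adjusted p = 0.000459) and Pcna (0.60 ± 0.17, adjusted p = 0.0107) were higher by less than the limit. Of the 33 calls 26 held whichever array was left out. Top2a (1.32 ± 0.36, adjusted p = 0.00845) lost its call without HBEGF P1 replicate 1 (adjusted p = 0.0513), and so did E2f1 (1.07 ± 0.23, then 0.97). Of the 2 genes called lower, 0 passed without MD replicate 1 and 1 without HBEGF P1 replicate 3. Of the 12 astrocyte markers 3 fell and 0 rose in the MD cultures, with sums of 68521 to 81107 against 122889 to 139955 in HBEGF P1 cultures. Of the 12 neuronal markers 6 fell and 0 rose, with sums of 7153 to 10405 against 15416 to 19497. Of the 6 oligodendrocyte progenitor markers 3 fell and 0 rose, with sums of 3051 to 4892 against 20854 to 29676. Their part in the cell cycle change was not tested.

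Serum P7 cultures, in the same percentage of serum for the same number of days, were under the MD cultures. Of the 40 genes 28 were called lower and 0 higher, where 6.37% of all genes were called lower and 7.58% higher. They were 10 of 13 regulators of mitosis, 9 of 9 spindle and chromosome genes, 7 of 9 S phase genes and 2 of 7 G1 genes. For 35 of the 40 every serum P7 array lay under every MD array, where 27.9% of all genes did so. Foxm1, the factor that activates mitotic genes, read 10.31, 10.43 and 10.60 in the MD cultures and 8.64, 8.66 and 8.29 in serum P7 cultures (-1.92 ± 0.38, 3.77-fold lower, adjusted p = 0.00114 by limma). Mcm5 (-1.87 ± 0.30, 3.65-fold lower, adjusted p = 0.000224) and Mcm7 (-1.67 ± 0.21, 3.19-fold lower, adjusted p = 1.95e-05) had the largest S phase changes, and Mki67 (-1.39 ± 0.36, 2.61-fold lower, adjusted p = 0.00826) and Top2a (-1.35 ± 0.36, 2.56-fold lower, adjusted p = 0.00998) fell as well. Of the 28 calls 22 held whichever array was left out. Cdc20 (-1.41) lost its call when any 1 of 14 arrays was left out. Nusap1 (-1.26) did so for any 1 of 4 arrays, Kif23 (-1.10) for any 1 of 3, and Mcm4, Kif20a and Prc1 for 1 or 2. Age, panning and other features of the preparation separate these groups, and their parts cannot be told apart. Of 12 fibroblast and meningeal markers 9 were higher in serum P7 than in MD cultures, and of 12 astrocyte markers 5, and their part was not tested. Taken as a difference of differences, serum against HBEGF culture in panned P7 cells and MD against HBEGF culture in P1 cells, 30 of the 40 genes were called lower and 0 higher, where 6.29% of all genes were called lower and 5.02% higher. All 9 S phase genes and 20 of 22 mitotic genes were among them, from Mcm5 (-2.67 ± 0.43, adjusted p = 0.000731 by limma) to Pcna (-1.07 ± 0.24, adjusted p = 0.00657). Of these 30 calls 23 held whichever array was left out, and Pcna lost its call without HBEGF P7 replicate 2 (-0.97) or replicate 3 (-0.89). Ccnd1 (-1.99 ± 0.65, adjusted p = 0.0514) did not pass, while both of its other probe sets did (adjusted p = 0.012 and 0.0156 by limma). Without any of 5 arrays (MD replicate 2 or 3, HBEGF P1 replicate 1, HBEGF P7 replicate 3 and serum P7 replicate 3) 1 gene was called higher.

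**Figure D4:**
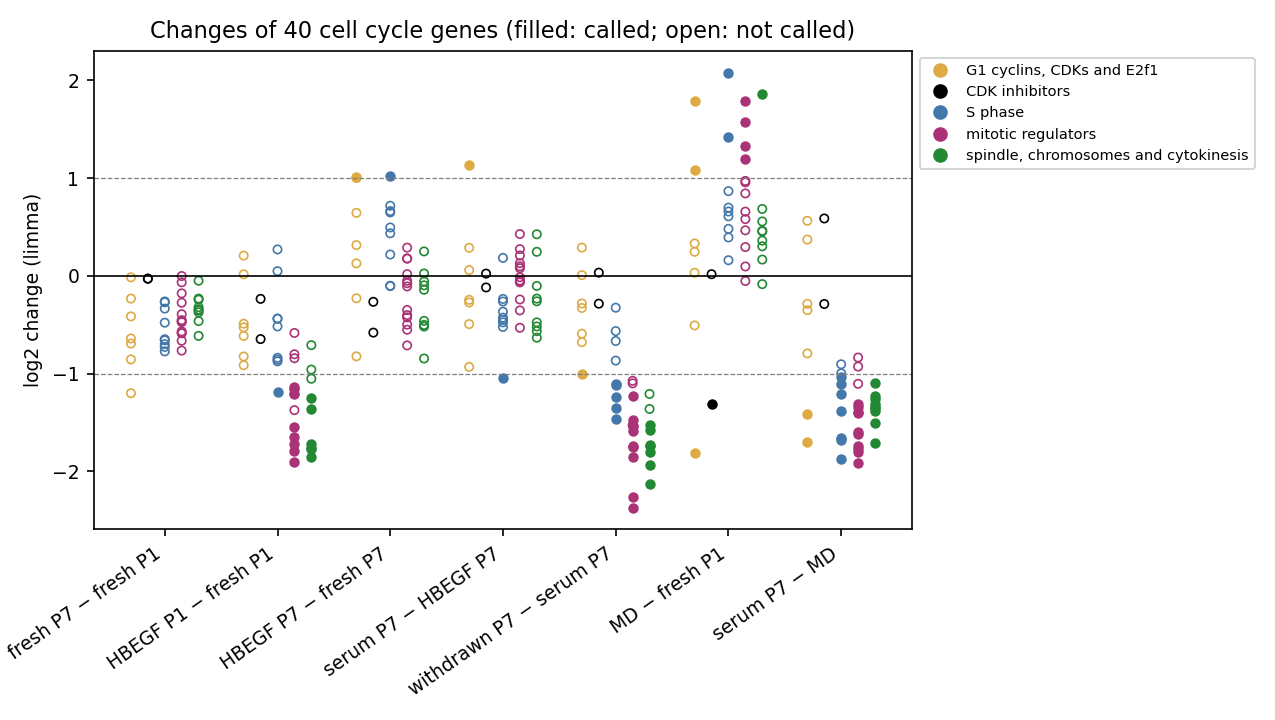
Log2 change of each of the 40 genes in 7 comparisons, coloured by role. Filled points were called by limma (adjusted p under 0.05 and a log2 change of at least 1, dashed lines), open points were not. Withdrawn against serum P7 and serum P7 against MD cultures hold 23 and 28 filled points under 0, and fresh P7 against fresh P1 cells hold none.

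The G1 genes did not share 1 pattern, and the 3 D cyclins differed from one another. Ccnd1 was highest in the MD cultures, at 14.01, 14.06 and 14.05, above every other array, and lowest in fresh P7 cells, at 10.87, 11.20 and 11.08. It rose in MD cultures against fresh P1 cells (1.79 ± 0.46, 3.46-fold higher, adjusted p = 0.00498 by limma) and against HBEGF P1 cultures (2.28 ± 0.46, 4.85-fold higher, adjusted p = 0.000807), and both calls held whichever array was left out. Ccnd2, cyclin D2, ran the other way. It read 13.45, 13.32 and 13.35 in fresh P1 cells and 11.02, 12.001 and 11.66 in the MD cultures, with no overlap, and fell (-1.81 ± 0.31, 3.51-fold lower, adjusted p = 0.000165 by limma). Its fall in MD against HBEGF P1 cultures (-1.20 ± 0.31, adjusted p = 0.00554) slipped under the 2-fold limit without MD replicate 1 (-0.93) or HBEGF P1 replicate 3 (-0.97). Ccnd2 was lowest in withdrawn P7 cultures, at 11.57, 11.45 and 11.01, and changed by -1.52 ± 0.31 against HBEGF P7 cultures and by -1.39 ± 0.31 against fresh P7 cells, both called.

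Ccnd3 was highest where most members were lowest. It read 11.52, 11.93 and 11.74 in the withdrawn cultures and 11.34, 11.45 and 11.53 in serum P7 cultures, against 10.19, 10.64 and 10.76 in fresh P7 cells and 9.96, 10.53 and 10.40 in HBEGF P7 cultures, with both of the former groups above both of the latter. It was the 1 member called higher in withdrawn against HBEGF P7 cultures (1.43 ± 0.24, 2.69-fold higher, adjusted p = 0.000466 by limma) and in withdrawn cultures against fresh P7 cells (1.20 ± 0.24, 2.30-fold higher, adjusted p = 0.000559), and both calls held whichever array was left out. E2f1 read 10.02, 10.10 and 10.01 in the MD cultures and 8.05, 7.90 and 8.36 in fresh P7 cells, its highest and lowest groups, and fell in serum P7 against MD cultures (-1.42 ± 0.23, 2.67-fold lower, adjusted p = 0.000194). Cdk4, the kinase partner of D cyclins, was called in no comparison and its group means spanned 0.90 on the log2 scale, the narrowest range of the 7 G1 genes. Cdk2, the partner of cyclins E and A, was called once, lower in withdrawn cultures than in fresh P7 cells (-1.74 ± 0.41, 3.35-fold lower, adjusted p = 0.00253). A second, dimmer probe set of Cdk2 also passed in serum P7 cultures against fresh P7 cells (-1.13, adjusted p = 0.00132) and in withdrawn against HBEGF P7 cultures (-1.23, adjusted p = 0.00155), so the probe sets differ on those calls. Ccne1, cyclin E1, was lowest in withdrawn cultures, at 7.59, 7.66 and 7.97.

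**Figure D5:**
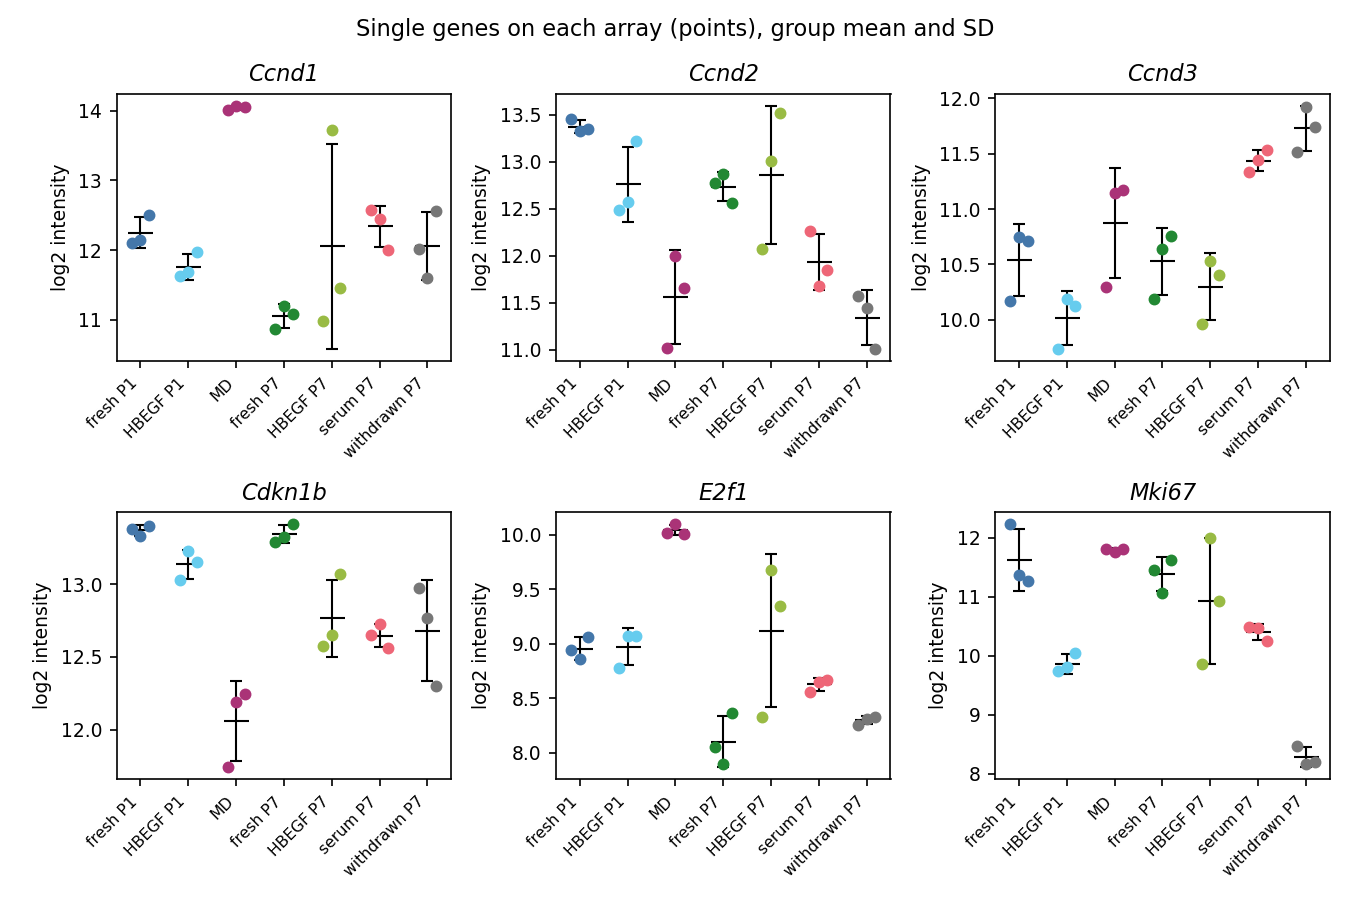
Log2 intensity of Ccnd1, Ccnd2, Ccnd3, Cdkn1b, E2f1 and Mki67 on each array (points), with group mean and SD (bars, n = 3). Ccnd1 and E2f1 peak in the MD cultures, Ccnd2 is lowest in the withdrawn P7 and MD cultures, Ccnd3 is highest in the withdrawn P7 cultures, and Cdkn1b is lowest in the MD cultures.

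Of the CDK inhibitors, Cdkn1b (p27), which holds cyclin E and A kinases inactive, was lowest where most members were highest. It read 11.74, 12.19 and 12.25 in the MD cultures, 13.03, 13.23 and 13.15 in HBEGF P1 cultures and 13.38, 13.33 and 13.40 in fresh P1 cells, without overlap, and fell in MD cultures against fresh P1 cells (-1.31 ± 0.16, 2.48-fold lower, adjusted p = 7.51e-06 by limma). The fall against HBEGF P1 cultures (-1.08 ± 0.16, adjusted p = 6.76e-05) was under the 2-fold limit without MD replicate 1 (-0.92). A second, dimmer probe set of Cdkn1b gave -1.96 (adjusted p = 0.0809) against fresh P1 cells and -0.55 (adjusted p = 0.65) against HBEGF P1 cultures, so the probe sets differ on the call. In withdrawn against serum P7 cultures Cdkn1b differed by 0.03 ± 0.16, with 12.65, 12.72 and 12.56 in serum and 12.98, 12.77 and 12.30 after withdrawal, which overlapped. Cdkn2c (p18), an inhibitor of CDK4 and CDK6, was called in no comparison by either of its probe sets.

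A wider set of related genes was read with the same test. Of 43 other replication genes 38 were measured: 26 rose in MD against HBEGF P1 cultures (8.81% of all genes), 34 fell in serum P7 against MD cultures (6.37%), and 9 fell in withdrawn against serum P7 cultures (2.26%), with 0 in the opposite direction in each. Asf1b, a histone chaperone of replication, had the largest rise in MD against HBEGF P1 cultures (2.95 ± 0.41, adjusted p = 2.97e-05 by limma) and Gmnn, the licensing inhibitor geminin, the next (2.70 ± 0.30, adjusted p = 2.44e-06). Uhrf1, which maintains DNA methylation at the fork, fell most on withdrawal (-1.85 ± 0.42, adjusted p = 0.0126), ahead of Asf1b (-1.52 ± 0.41). Of 62 other mitosis genes 52 were measured: 28 fell in HBEGF P1 cultures against fresh P1 cells (4.49% of all genes), 44 rose in MD against HBEGF P1 cultures (8.81%) and 37 fell on withdrawal (2.26%), again with 0 in the opposite direction. Cenpw, a kinetochore protein, fell most in HBEGF P1 cultures (-2.41 ± 0.42, adjusted p = 0.000509), and Kif20b (-2.34 ± 0.32, adjusted p = 0.000407) and Ttk, the checkpoint kinase (-2.16 ± 0.39, adjusted p = 0.00293), fell most on withdrawal. Of 17 genes of the replication checkpoint and repair 14 were measured, and 4 fell on withdrawal (2.26% of all genes), led by Exo1 (-1.94 ± 0.30, adjusted p = 0.000936), while 9 rose in MD against HBEGF P1 cultures (8.81%), led by Rad18 (2.00 ± 0.32) and Exo1 (1.71 ± 0.30).

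Of 18 pocket protein, E2F and MuvB genes 16 were measured. E2f8, a repressive E2F whose level follows the cycle, fell in HBEGF P1 cultures (-1.76 ± 0.39, adjusted p = 0.0039 by limma) and on withdrawal (-1.74 ± 0.39, adjusted p = 0.0125), and rose in MD against HBEGF P1 cultures (2.64 ± 0.39, adjusted p = 5.6e-05). Mybl2, which encodes B-Myb, rose there as well (2.25 ± 0.29, adjusted p = 1.31e-05), while Rbl2, the p130 pocket protein of DREAM, fell (-1.41 ± 0.17, adjusted p = 7e-06), as did Tfdp2 (-1.54 ± 0.20). In serum P7 against MD cultures all 4 moved the opposite way: Mybl2 (-2.62 ± 0.29) and E2f8 (-2.43 ± 0.39) fell and Rbl2 (1.70 ± 0.17) and Tfdp2 (1.69 ± 0.20) rose. These comparisons share the MD arrays. Of 13 other cyclins and CDKs 12 were measured, and Ccng1 was higher in every culture type than in fresh cells of its age (1.62 ± 0.19 in HBEGF P1, 1.81 ± 0.19 in HBEGF P7, 2.85 ± 0.19 in serum P7, 2.17 ± 0.19 in withdrawn P7 and 2.54 ± 0.19 in MD cultures, all called). Ccng2, a cyclin of resting cells, fell in MD cultures (-1.76 ± 0.26 against fresh P1 cells), and Ccne2 fell on withdrawal (-1.43 ± 0.29, adjusted p = 0.00708).

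The 6 other CDK inhibitors, all measured, did not move as 1 group. Cdkn2a, whose locus encodes p16 and ARF, read 5.38, 5.24 and 4.97 in fresh P7 cells, near the 25th percentile of all values, 6.61, 8.75 and 6.79 in HBEGF P7 cultures, 8.90, 9.28 and 8.29 in serum P7 cultures and 7.67, 7.87 and 7.81 in withdrawn cultures. Every culture of P7 cells was above every fresh array, and HBEGF P7 replicate 2 stood with the serum arrays. It rose in HBEGF P7 cultures (2.19 ± 0.44, adjusted p = 0.00149 by limma) and serum P7 cultures (3.63 ± 0.44, adjusted p = 5.95e-06) against fresh P7 cells. The fresh P7 mean, 5.19, lay under that percentile, so the sizes of these changes are not well set and may be too small. Cdkn1a (p21) read 9.91, 9.68 and 9.84 in fresh P1 cells and 11.69, 11.56 and 11.83 in MD cultures (1.88 ± 0.27, adjusted p = 3.13e-05), the group in which this inhibitor was highest. Cdkn2b (p15) rose in serum P7 against HBEGF P7 cultures (1.46 ± 0.31, adjusted p = 0.00304). Cdkn3, a phosphatase that acts on CDKs, fell in HBEGF P1 cultures (-2.00 ± 0.34, adjusted p = 0.000495) and on withdrawal (-1.60 ± 0.34, adjusted p = 0.00914), as mitotic genes did. Cdkn1c (p57), singled out after its values were seen, read 7.08, 7.67 and 12.62 in serum P7 cultures and 11.72, 11.74 and 13.35 after withdrawal. Serum P7 replicate 3 stood with the withdrawn arrays, and the change was not called (3.15 ± 1.05, adjusted p = 0.0803).

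Of 12 p53 target genes 9 were measured. Fas, a death receptor, and Phlda3, an inhibitor of Akt, rose in HBEGF P1 cultures (3.74 ± 0.50, adjusted p = 5.05e-05 and 1.90 ± 0.24, adjusted p = 2.39e-05 by limma), in HBEGF P7 cultures (3.78 ± 0.50 and 2.47 ± 0.24), in serum P7 cultures (4.14 ± 0.50 and 3.66 ± 0.24) and in MD cultures (3.99 ± 0.50 and 4.22 ± 0.24), each against fresh cells of the same age. Plk2, a kinase of the Polo family, fell in HBEGF P1 (-2.93 ± 0.25, adjusted p = 4.4e-07) and HBEGF P7 cultures (-3.18 ± 0.25, adjusted p = 1.29e-07) and rose from fresh P1 to fresh P7 cells (1.01 ± 0.25, adjusted p = 0.0394). On withdrawal none of the 9 was called by limma, with a median change of 0.02, and 1 was higher and 0 lower at an unadjusted p under 0.05.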

How the data were processed

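RNA of 21 samples was read on Affymetrix rat whole-genome 3' expression arrays. The deposited values are probe set intensities on a linear scale, made by the authors with RMA, per the submitters' processing notes, which corrects background and equalises the distributions of the arrays. All values here are log2 of the deposited intensity. RMA makes arrays alike in total signal, so a change in RNA per cell cannot be seen. Of 31042 probe sets, 20826 carried 1 gene symbol, 436 several and 9780 none. One model with 7 group means was fitted to all probe sets with limma 3.58.1 in R 4.3.3 (lmFit, contrasts.fit, eBayes), and p-values were adjusted by Benjamini-Hochberg over all 31042 within each of 12 comparisons and 2 differences of differences. A call needs adjusted p under 0.05 and a log2 change of at least 1. The script was tested on simulated data. The members and the lists were chosen with earlier results of these data known. Any member could be named, with in each comparison the 4 called members of each role with the largest change, and the 2 called genes of each wider list with the largest change in each direction. Alternatives were median centring, a second quantile normalization, a filter on dim probe sets, other probe set rules, array weights, a trend in the prior, the replicate number as a block, log2(value + 16), and leaving out each array. In 5 of 12 comparisons (HBEGF P1 or MD against fresh P1, MD or HBEGF P7 against HBEGF P1, and withdrawn against serum P7) the deviations of same-numbered arrays from their group means, over all genes, correlated over 0.1 for each number (0.157 to 0.588), and there a block of those 2 groups was fitted too. The pairing comes from the data, since the labels do not state it. The labels call the replicates biological. The p-values rest on a single spread estimate for each gene, shared by all 7 groups, and not on the spread of the groups compared. For Mki67 the SD was 1.07 in HBEGF P7 cultures and 0.03 to 0.53 in the other groups. For these genes the standard errors may be too small in comparisons with HBEGF P7 cultures. They may be too large between groups whose arrays lay close together.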

Additional observations from a re-analysis of the deposited data

Results flagged for a closer look

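A test of the difference itself set these cell cycle genes apart between ages or preparations. The change from fresh cells to HBEGF culture was higher at P7 than at P1 for Mcm2, by 1.18 on the log2 scale, a call that was lost without any of 19 of the 21 arrays, with centring and with array weights. From the difference between serum and HBEGF culture of panned P7 cells, that between MD and HBEGF culture of P1 cells was subtracted. This difference of differences was negative and called for 30 genes. For 7 of them (Pcna, Ccna2, Ccnb1, Ccnb2, Top2a, Kif11 and Nusap1) the call was lost without some 1 array. In G1 and S phase it was -1.56 for E2f1, -1.42 for Mcm2, -2.29 for Mcm3, -1.49 for Mcm4, -2.67 for Mcm5, -2.04 for Mcm6, -1.47 for Mcm7, -1.07 for Pcna, -1.50 for Rrm1 and -1.85 for Tyms. Among regulators of mitosis it was -1.85 for Ccna2, -2.08 for Ccnb1, -1.76 for Ccnb2, -2.23 for Cdk1, -2.63 for Foxm1, -2.30 for Plk1, -2.27 for Aurka, -1.68 for Bub1, -2.17 for Bub1b, -2.27 for Ube2c and -2.44 for Birc5. Among spindle and chromosome genes it was -2.45 for Mki67, -1.79 for Top2a, -2.00 for Kif11, -2.14 for Kif20a, -1.98 for Kif23, -1.99 for Nusap1, -2.38 for Prc1, -2.08 for Cenpf and -2.50 for Racgap1. Age and preparation both differ in that contrast and cannot be told apart.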

How the results depend on the processing

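Of 206 calls of cell cycle genes none reversed under any alternative, 55 did not pass without some 1 array and 29 did not under some other alternative. Leaving out 1 array gave these ranges of genes called: lower in fresh P7 against fresh P1 cells 0 to 1, lower in HBEGF P1 against fresh P1 10 to 19, higher in HBEGF P7 against fresh P7 0 to 4 and lower 0 to 3, higher in HBEGF P7 against HBEGF P1 0 to 20, higher in serum P7 against HBEGF P7 0 to 2 and lower 0 to 7, lower in withdrawn against serum P7 12 to 27, lower in withdrawn against HBEGF P7 22 to 35, higher in serum P7 against fresh P7 1 to 2 and lower 0 to 2, higher in withdrawn against fresh P7 1 to 2 and lower 23 to 29, higher in MD against fresh P1 8 to 9, higher in MD against HBEGF P1 26 to 32 and lower 0 to 2, lower in serum P7 against MD 24 to 30, higher for the difference in culture change 0 to 22, and for the difference in serum change higher 0 to 1 and lower 24 to 34. Array weights gave 1 lower in fresh P7 against fresh P1, 0 higher and 2 lower in HBEGF P7 against fresh P7, 0 higher for the culture change, 1 lower in MD against HBEGF P1, 0 lower in serum P7 against HBEGF P7 and 2 lower in serum P7 against fresh P7. Centring gave 0 higher for the culture change, 1 lower in MD against HBEGF P1 and 0 lower in serum P7 against HBEGF P7. Adding 16 gave 0 higher in HBEGF P7 against fresh P7, and quantile normalization 1 there and 1 higher for the serum change. Averaging probe sets gave 1 lower in MD against HBEGF P1, and the most variable probe set gave 1 there and 1 in MD against fresh P1. A trend or a filter on dim probe sets gave 2 lower in serum P7 against fresh P7. The causes were not tested. Bright probe sets compress change and dim ones lie near background, which limits small differences.

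With the replicate number as a block in all groups, 25 genes were lower in withdrawn against serum P7 cultures, 16 in HBEGF P1 against fresh P1 cells and 2 in serum P7 against fresh P7 cells. With a block in the 2 groups compared alone, an alternative chosen after seeing the data, 22 were lower in withdrawn against serum P7 cultures and 13 in HBEGF P1 against fresh P1 cells, and beside the 3 calls named with those results it changed no call of a cell cycle gene in the 5 comparisons it was run on.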
